A study of Homo sapiens with 47 samples.

Results

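MALAT1-high and MALAT1-low cells were compared among single HEK293 cells, an established line made from human embryonic kidney by adenovirus DNA. All cells were grown in one medium, with glutamine and 10% fetal calf serum, and no treatment, genotype or separate culture is named in the labels. Each cell was lysed in a chamber of a Fluidigm C1 circuit, a microfluidic chip, together with ERCC spike-ins, synthetic RNAs added at 20000 molecules per cell. RNA was primed with oligo-dT, and the 5′ ends of the cDNA carried unique molecular identifiers (UMIs), random tags that count molecules before PCR. Of the 47 cells, cell 52 was left out as an outlier with few cytoplasmic mRNAs. The other 46 were ranked by their MALAT1 UMIs as a share of all endogenous UMIs, meaning all UMIs outside the spike-ins. The 12 MALAT1-high and the 12 MALAT1-low cells were chosen by that measured share, and 22 cells lay between them. The MALAT1 values below therefore describe the choice, and only the other genes carry information on what goes with it. Because the labels name 1 line, 1 run and no separate cultures, the cells count as 1 sample. No p-value is given, and the 95% intervals cover counting error only, not the spread between cells.

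MALAT1 is a long non-coding RNA that stays in the nucleus and collects in nuclear speckles, bodies rich in splicing factors. It is among the most abundant long RNAs of many mammalian cells, so that its share of the reads of a cell is often read as a sign of how much nuclear RNA was captured. NEAT1, its neighbour in the genome, is the scaffold of paraspeckles, another kind of nuclear body, and XIST coats the inactive X chromosome. The question of the comparison is whether such nuclear RNAs go with MALAT1 from cell to cell. MALAT1 does not end in an ordinary poly(A) tail: its 3′ end is cut next to a genome-encoded run of A, which oligo-dT can still prime.

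The library keeps the 5′ ends of the cDNA and so is meant to count RNAs at their start, which was not tested for MALAT1. RefSeq's promoter table (GRCh38.p14) holds 2 starts for MALAT1, both on the plus strand. The first 100 bases shown span 50 bases on either side of the downstream start (chr11:65498995-65499094), and the capitals mark the TATA box motif TATAAA, which begins 30 bases before the start. The other 100 bases span the upstream start (chr11:65497688-65497787), where the motif is on neither strand.
MALAT1 downstream start: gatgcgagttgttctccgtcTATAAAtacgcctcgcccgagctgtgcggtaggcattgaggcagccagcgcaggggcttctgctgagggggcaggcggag
MALAT1 upstream start: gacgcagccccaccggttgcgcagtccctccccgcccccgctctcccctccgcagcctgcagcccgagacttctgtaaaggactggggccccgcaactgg
TATAAA on either strand was present in 11.5% of the 35116 promoter windows of the table, each 250 bases before and 50 after a start. The deposited table counts UMIs per gene, so whether those of MALAT1 came from either start was not analysed here. The table was made on another build (hg19, GRCh37), and no coordinate of its own is used.

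MALAT1-high cells had 18.5 to 46.2 MALAT1 UMIs per 10000 endogenous UMIs, with a median of 28.8. MALAT1-low cells had 1.12 to 7.50 per 10000, with a median of 3.36. The highest cell, cell 31, stood 41.1-fold above the lowest, cell 34. The ranking ran on without a gap: cell 43, the last high cell, had 18.5 per 10000 and cell 2, the next one outside, had 18.3. On the low side cell 16 had 7.50 inside and cell 33 had 7.53 outside. In raw counts the high cells held 86 to 257 MALAT1 UMIs each (median 155) and the low cells 5 to 50 (median 15), together 1940 and 229.

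Totals were measured in both groups. MALAT1-high cells had 29325 to 138647 endogenous UMIs (median 58473) and MALAT1-low cells 32527 to 69866 (median 43390.5), so the ranges overlapped. Cell 23, with the smallest total of the 46 cells, was a high cell. Divided by spike-in UMIs, endogenous RNA was 9.89 to 29.8 in high cells (median 16.4) and 10.9 to 20.2 in low cells (median 13.01). Cell 31, the highest by MALAT1 share, had the lowest of these values. The pooled ratio of the groups was 1.23, and in 68.1% of the 144 pairs of a high and a low cell the high cell had the larger value. Against spike-ins MALAT1 itself was 3.24 to 5.83 UMIs per 100 in high cells and 0.156 to 1.52 in low cells, an 8.19-fold pooled ratio against 6.68 by share. When cells were ranked by MALAT1 per spike-in UMI, 10 of the 12 high and 11 of the 12 low cells were the same. Mitochondrially encoded rows took a median of 5.54% of UMIs in high and 5.98% in low cells. At an equal depth of 29325 UMIs a median of 5101 genes was detected in high and 4868 in low cells. Of the high cells 9 carry label numbers up to 48 and 3 above, and of the low cells 5 and 7. The labels do not say what the number stands for, and its part in the differences was not tested, but values within each range are given where they differ.

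**Figure D1:**
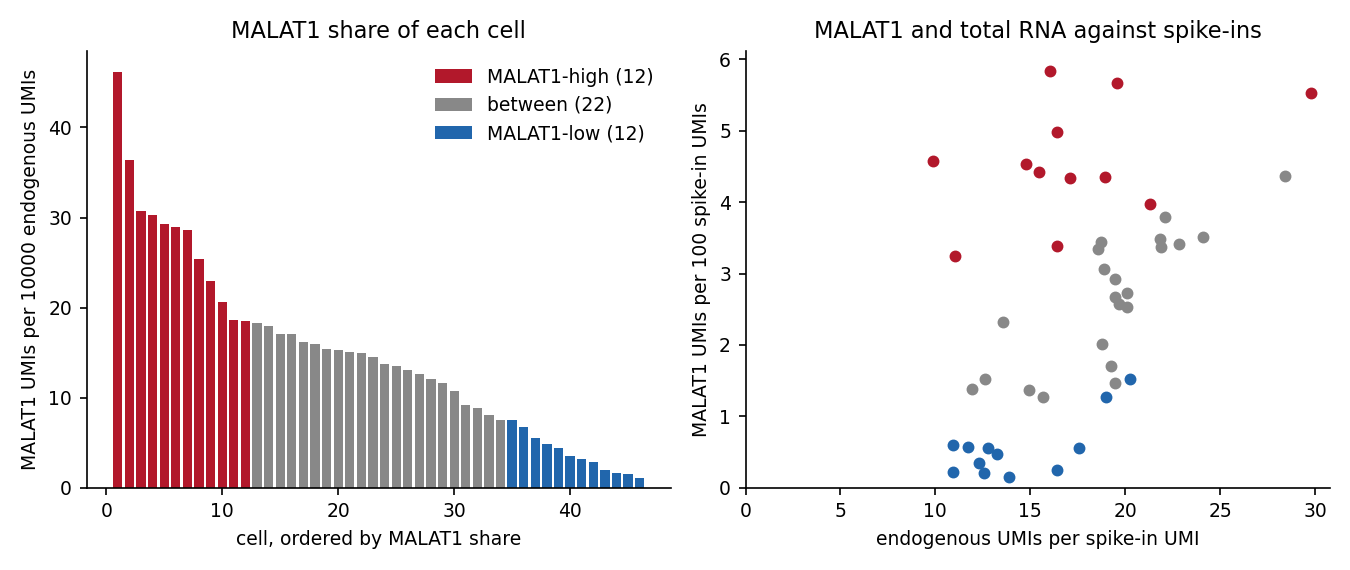
Left: MALAT1 UMIs per 10000 endogenous UMIs in each of the 46 cells, ordered by that value, with the 12 high cells in red, the 22 between in grey and the 12 low cells in blue. Right: MALAT1 UMIs per 100 spike-in UMIs against endogenous UMIs per spike-in UMI, 1 point a cell. The high cells (3.24 to 5.83) lie above the low cells (0.156 to 1.52). Their totals per spike-in UMI overlap (9.89 to 29.8 and 10.9 to 20.2), with a higher median in high cells (16.4 and 13.01).

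Across all other genes the groups were close. For each gene the share was its UMIs over all endogenous UMIs except MALAT1, and the ratio is the pooled share in high cells over that in low cells. A gene was called higher or lower at 1.5 times or more. Of 3647 genes with at least 100 UMIs over the 46 cells, 335 (9.19%) were called higher and 400 (11%) lower in the MALAT1-high cells, with a median log2 ratio of -0.03. Among the 964 genes with at least 460 UMIs, 24 (2.49%) were higher and 17 (1.76%) lower. Among 9050 genes with at least 20 UMIs, 1857 (20.5%) were higher and 1861 (20.6%) lower, so the counts grew with low counts on both sides alike. In none of the 3647 tested genes (0) did the 12 high and the 12 low cells fail to overlap. The balance of the calls depends on the scaling: 45.6% of calls were on the higher side by share, 67.6% with DESeq2 size factors and 83.5% per spike-in UMI. These scalings moved the median log2 ratio of all genes to 0.13 and 0.26, so each ratio below is read against genes on the same scale.

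**Figure D2:**
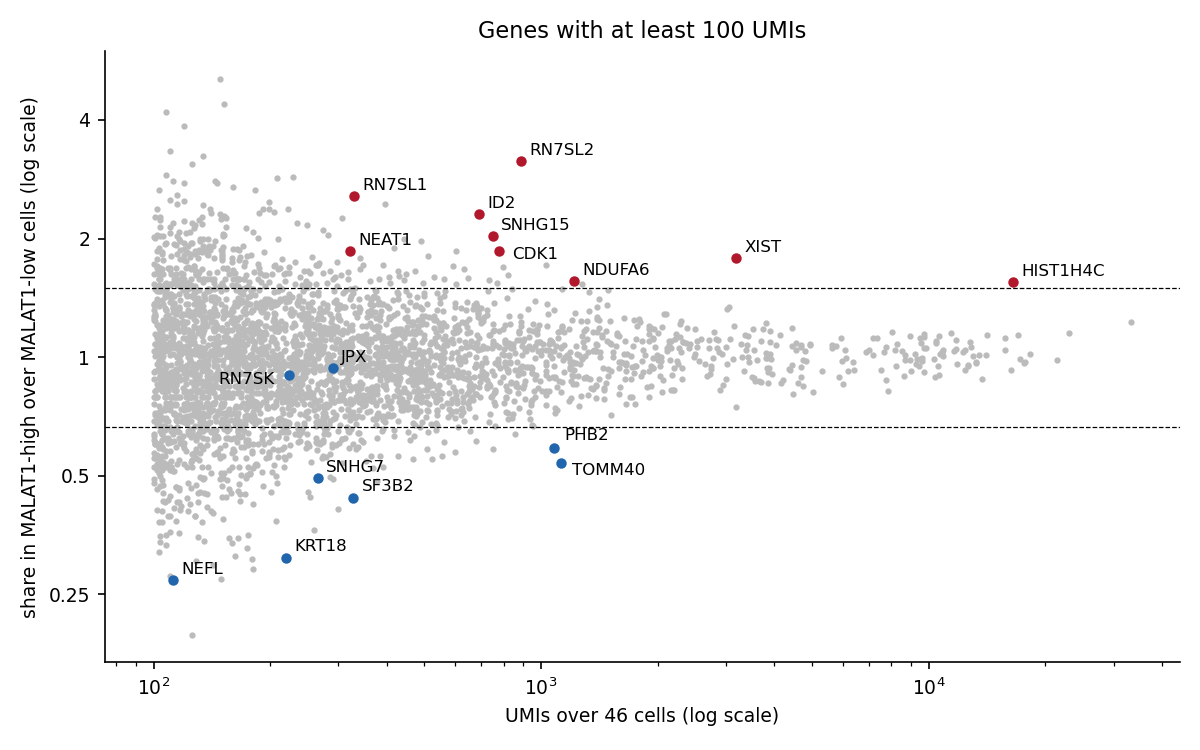
Ratio of the share in MALAT1-high over MALAT1-low cells (log scale) against the UMIs of each gene over 46 cells (log scale), for the 3647 genes with at least 100 UMIs. Dashed lines mark 1.5 times in each direction. RN7SL2 (3.14), XIST (1.78) and HIST1H4C (1.55) lie above the upper line at high counts, and JPX (0.94) and RN7SK (0.90) lie near 1.

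Of the nuclear RNAs, NEAT1 and XIST were higher in the MALAT1-high cells, and the other nuclear long non-coding RNAs with enough counts were not called in either direction. NEAT1 was 0 to 4.80 UMIs per 10000 in high cells (median 1.06) and 0.225 to 2.06 in low cells (median 0.562). The ranges overlapped, but 11 of the 12 high cells lay above the median of the low cells. Its ratio was 1.86 (95% counting interval 1.30 to 2.68), from 108 and 46 UMIs. With so few UMIs, 1 or 2 cells weigh on the size. Leaving out each of the 24 cells in turn gave log2 ratios from 0.63 to 1.21, and cells numbered up to 48 alone gave a ratio of 2.92 against 1.53 for those above 48.

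XIST, by contrast, was counted in every one of the 24 cells. Its level was 6.40 to 22.1 UMIs per 10000 in high cells (median 14.04) and 2.37 to 25.9 in low cells (median 5.67). All 12 high cells lay above the low median, although the single highest value was in a low cell. The pooled ratio was 1.78 (1.59 to 2.00), from 1007 and 447 UMIs, and the high cell was above the low cell in 83.3% of pairs. Over the 46 cells XIST and MALAT1 shares had a Spearman rho of 0.49, among genes with at least 460 UMIs one of the 6 highest. All these shares come from the same cells, run and totals. The ratio was 2.33 in cells numbered up to 48 and 1.31 in those above, and 1.38 when the ranking was split into 23 and 23 cells.

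JPX and RN7SK show how the other nuclear RNAs behaved. JPX, a non-coding RNA from the X inactivation centre, was 0.337 to 1.60 per 10000 in high cells (median 0.941) and 0.261 to 1.54 in low cells (median 0.871), with a ratio of 0.94 (0.64 to 1.37). RN7SK, the nuclear RNA that holds the elongation factor P-TEFb inactive, was 0.132 to 1.68 (median 0.676) and 0.3002 to 1.89 (median 0.738), with a ratio of 0.90 (0.61 to 1.34). High and low cells overlapped throughout for both RNAs. CRNDE had a ratio of 0.79, HOTAIRM1 of 0.81, DLEU1 of 0.88 and DLEU2 of 0.96, while NUTM2A-AS1 had 1.33, and every one of these intervals included 1. For CRNDE, 50 UMIs in each group gave an interval from 0.52 to 1.19. DLEU2 and NUTM2A-AS1 turned with the label numbers, with ratios of 0.30 and 2.91 in cells up to 48 and of 4.38 and 0.38 in those above. RN7SK had 1.45 and 1.03.

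The list of nuclear long non-coding RNAs, with MALAT1 and XIST left out, took 0.0556% to 0.138% of UMIs in high cells (median 0.0874%) and 0.0539% to 0.107% in low cells (median 0.0824%). Of the 47 RNAs listed 33 had UMIs and 8 had at least 100, of which 1 (NEAT1) was called higher and 0 lower, against 9.19% and 11% of all genes. The median log2 ratio of the 8 was -0.12, against -0.03 for all tested genes. As a sum the list had a ratio of 1.12 (0.99 to 1.27), so a difference of this size was not separable from counting error at this depth. With XIST added, a choice made after its values were seen, the ratio was 1.45 (1.34 to 1.58), and 1007 of the 1633 UMIs of the high cells were then from XIST. Among the 22 members with at least 20 UMIs 8 were higher and 2 lower, where 20.5% and 20.6% of all such genes were.

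Several RNAs below the 100 UMI limit had large ratios on few molecules, and they are named after their values were seen. KCNQ1OT1, an antisense RNA that silences an imprinted gene cluster in cis, had 31 and 10 UMIs, a ratio of 2.45 (1.17 to 5.60). It was 0 to 1.26 per 10000 in high cells and 0 to 0.792 in low cells, with a UMI in 8 of the 12 high and 6 of the 12 low cells. Pooled over the cells between, KCNQ1OT1 was 0.096 per 10000 (median 0), below the 0.172 of the low cells. It therefore did not rise steadily along the ranking. TUG1 had 18 and 9 UMIs and OIP5-AS1 28 and 14, each with a ratio of 1.58 and an interval that included 1. RPPH1, the RNA of ribonuclease P, had 15 and 2 UMIs. The telomerase RNA TERC and the RNA of ribonuclease MRP (RMRP) each had 8 and 3. In the opposite direction LINC-PINT had 0 UMIs in the high cells and 6 in the low cells.

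Small nuclear and nucleolar RNAs lack poly(A) tails when mature. Few of them were counted, and the reason was not tested. In sum they held 0.0639% of UMIs in high and 0.0653% in low cells, a ratio of 0.98 (0.85 to 1.12). The summed ratio was 1.46 in cells numbered up to 48 and 1.10 above, each higher than the pooled one. Of the 3 with at least 100 UMIs 0 were called, against 9.19% higher and 11% lower among all genes. The 3 ratios were 0.90 for RN7SK, 1.11 for the Cajal body RNA SCARNA22 and 1.40 for SNORD104. At 20 UMIs 7 of 20 were higher and 4 lower, against 20.5% and 20.6% of all such genes. Examples on each side were SNORD13, a nucleolar RNA of rRNA processing, with 24 and 6 UMIs, and SCARNA14 with 3 and 13.

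**Figure D3:**
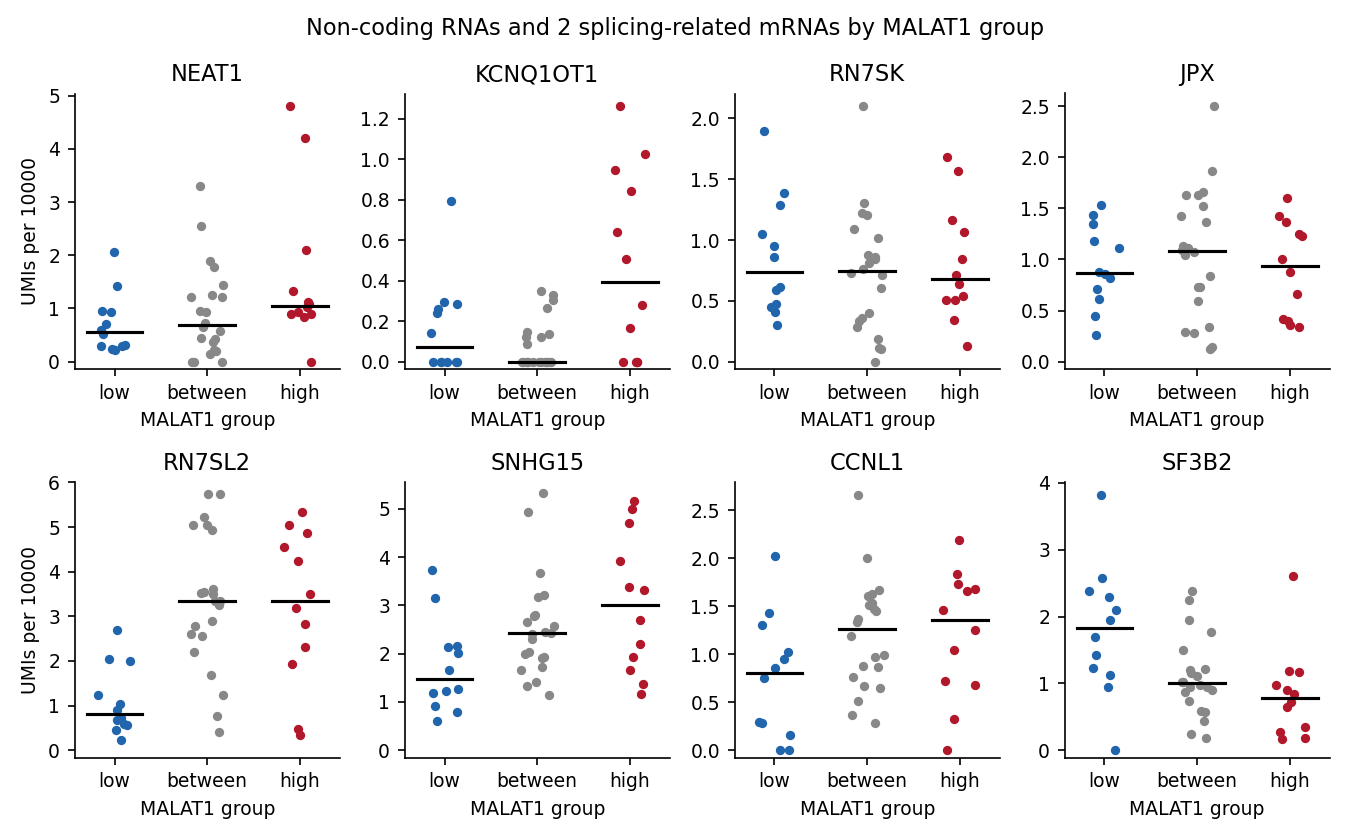
UMIs per 10000 endogenous UMIs other than MALAT1 in each cell, by MALAT1 group, for 6 non-coding RNAs and 2 mRNAs, with 1 point a cell and a line at the median. NEAT1, RN7SL2 and SNHG15 have higher medians in high than in low cells (1.06 and 0.562, 3.34 and 0.808, 3.01 and 1.47), RN7SK and JPX similar ones, and SF3B2 a lower one (0.782 and 1.82).

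RN7SL2 had the highest ratio of the 964 genes with at least 460 UMIs. It encodes the RNA of the signal recognition particle, a cytoplasmic complex that brings ribosomes to the endoplasmic reticulum, and not a nuclear RNA. High cells had 0.342 to 5.35 per 10000 (median 3.34) and low cells 0.237 to 2.69 (median 0.808). The groups overlapped, since some high cells were as low as the low group, while 10 of the 12 lay above the low median. The ratio was 3.14 (2.403 to 4.15), from 274 and 69 UMIs, and the cells between had a median of 3.34, level with the high cells. The ratio was 1.90 with 16 cells a group and 1.58 with 23. RN7SL1, a near-identical copy, had a ratio of 2.56 (1.67 to 4.03), or 1.46 with 23 cells a group. How reads were divided between the 2 copies is not given in the sources used here.

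Other cytoplasmic long non-coding RNAs moved in both directions. SNHG15, a snoRNA host transcript, was 1.17 to 5.16 per 10000 in high cells (median 3.01) and 0.600 to 3.73 in low cells (median 1.47), a ratio of 2.03 (1.60 to 2.59). SNHG7, another host transcript, had 0 to 1.85 and 0 to 3.38, with medians of 0.395 and 0.948 and a ratio of 0.49 (0.33 to 0.73). DANCR was 1.28 to 5.92 in high and 1.80 to 7.06 in low cells, a ratio of 0.70 (0.57 to 0.85), and 1 of the 12 high cells lay above the low median. The list of 19 with at least 100 UMIs had 2 called higher (RN7SL1 and SNHG15) and 1 lower (SNHG7), against 9.19% and 11% of all genes. The summed ratio of the list was 1.02 (0.97 to 1.07). GAS5 and ZFAS1, also snoRNA hosts, had ratios of 1.17 and 1.18.

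Transcripts named after genomic clones, most of them non-coding or poorly annotated, took 1.80% of UMIs in high and 1.71% in low cells, a ratio of 1.05 (1.03 to 1.08). Of 63 with at least 100 UMIs 11 were higher and 5 lower, against 9.19% and 11% of all genes. RP11-343H5.4 had the highest rank correlation with MALAT1 over the 46 cells (rho 0.50), with 1.18 to 3.70 per 10000 in high cells (median 2.30) and 0.238 to 2.46 in low cells (median 1.33), a ratio of 1.86 (1.42 to 2.44). Its ratio was 1.85 in cells numbered up to 48 and 2.03 above. Antisense and LINC-named transcripts had a summed ratio of 0.93 (0.87 to 0.98), with 5 of 19 higher and 4 lower, against the same 9.19% and 11%. Without a stated use of strand, reads of an antisense transcript and of its partner gene cannot be told apart, and this holds for MALAT1 too, which has an antisense partner.

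Messenger RNAs that are often held in the nucleus with unspliced introns form another group. The list of detained-intron and poison-exon genes, mostly splicing regulators, took 0.587% of UMIs in high and 0.553% in low cells, a ratio of 1.06 (1.01 to 1.11). Of 29 tested members 4 were higher (CCNL2 1.84, CCNL1 1.72, TRA2B 1.59 and PABPN1 1.54) and 2 lower (ATXN2L 0.65 and PPP1R10 0.66), near the 9.19% and 11% of all genes, and the median log2 ratio was 0.16. With 23 cells a group the ratio of TRA2B was 1.05. CCNL1, the cyclin L1 of speckles, was 0 to 2.19 per 10000 in high cells (median 1.35) and 0 to 2.02 in low cells (median 0.805), and its counting interval was 1.2 to 2.49. SRSF7, an SR splicing factor, went the other way, with 2.02 to 7.75 (median 3.74) and 3.40 to 8.31 (median 5.77). Its ratio was 0.71 (0.61 to 0.84), and 2 of the 12 high cells lay above the low median. GOLGA8A, below the 100 UMI limit and named after its values were seen, had 31 and 7 UMIs, with a UMI in 10 of the 12 high and 4 of the 12 low cells. Intron reads have no counts of their own in the table, so spliced and unspliced forms were not separated.

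mRNAs of nuclear speckle proteins, the proteins of the bodies where MALAT1 sits, were on the low side. The list took 0.294% to 0.464% of UMIs in high cells (median 0.431%) and 0.378% to 0.568% in low cells (median 0.468%). None of the high cells (0 of 12) lay above the low median, and in 25.0% of pairs the high cell had the larger share. The summed ratio was 0.89 (0.85 to 0.94), and of 31 tested members 1 was higher and 4 lower, near the 9.19% and 11% of all genes. Per spike-in UMI the ratio was 1.09, less than the shift of all genes on that scale.

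SF3B2, a subunit of the U2 snRNP and 1 of the 4 lower members, had 59 UMIs in high cells and 106 in low cells. It was 0.175 to 2.61 per 10000 in high cells (median 0.782) and 0 to 3.82 in low cells (median 1.82), a ratio of 0.44 (0.31 to 0.61). SF3A1, of the same particle, was 0.474 to 2.52 (median 1.48) and 1.44 to 3.55 (median 2.30), a ratio of 0.62 (0.47 to 0.80). In each of these genes 1 of the 12 high cells lay above the low median. ZC3H14, a nuclear poly(A)-binding protein, had a ratio of 0.40 and the export adaptor ALYREF 0.66. SRPK2, a kinase of SR proteins, was the 1 higher member (1.67, 0.92 to 3.18), while SON, the large scaffold of speckles, had 1.24 (1.05 to 1.47) and SRRM2 0.90.

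Paraspeckle protein mRNAs did not follow NEAT1 as a group. Their summed ratio was 1.04 (0.98 to 1.10), with 1 of 16 members higher and 0 lower, against 9.19% and 11% of all genes. The higher one was TARDBP, which encodes the RNA-binding protein TDP-43, with 0 to 2.36 per 10000 in high cells (median 0.769) and 0 to 1.43 in low cells (median 0.493), a ratio of 1.73 (1.12 to 2.72). With 16 cells a group the ratio of TARDBP was 1.11. RBMX, an hnRNP protein, had 1.47 (1.23 to 1.74). The core proteins NONO and SFPQ had ratios of 0.91 and 1.197, and MATR3 had 1.17.

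Cell cycle genes did not move as a block. The G2/M list took 0.663% of UMIs in high and 0.596% in low cells, a ratio of 1.11 (1.06 to 1.16). Of 45 tested members 13 were higher and 3 lower, that is more on the higher side than the 9.19% of all genes, with a median log2 ratio of 0.14. The medians of the cells were close, at 0.574% and 0.542%, and in 51.4% of pairs the high cell had the larger share. Within cells numbered up to 48 the ratio was 1.01 and above 48 it was 1.36.

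CDK1, the kinase that drives entry into mitosis, was 0.640 to 4.90 per 10000 in high cells (median 2.38) and 0.294 to 5.11 in low cells (median 0.695). The single highest value was in a low cell, and 3 of the 12 low cells lay above the high median, while 11 of the 12 high cells lay above the low median. Its ratio was 1.86 (1.45 to 2.41), but 4.75 in cells numbered up to 48 and 1.53 in those above. The cells between had a CDK1 median of 2.75, above that of the high cells. TOP2A, the topoisomerase of condensing chromosomes, was 0.684 to 6.58 (median 2.76) and 0.430 to 6.75 (median 1.18), a ratio of 1.69 (1.35 to 2.14). For TOP2A the cells between had a median of 2.21, between those of the high and low cells. The ratio of TOP2A was 1.16 in cells up to 48 and 2.46 above. With 8 cells a group it was 3.37, and leaving out 1 cell at a time gave log2 ratios from 0.60 to 1.32. UBE2C, which helps the anaphase-promoting complex tag proteins with ubiquitin, had 1.72, with 1.13 in cells up to 48 and 3.18 above. The spindle protein NUSAP1 had 1.67. The other higher members ran from TMPO (1.504) to ANLN (2.21), an actin-binding protein of cell division. CCNA2 (0.57), HMMR (0.59) and RANGAP1 (0.65) were the 3 lower ones, and the securin gene PTTG1 had 0.67 (0.54 to 0.83), or 1.02 with 23 cells a group.

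G1/S genes had a summed ratio of 0.99 (0.94 to 1.04). Of 41 tested members 2 were higher and 4 lower, against 9.19% and 11% of all genes. The ratio of the list was 1.32 in cells numbered up to 48 and 0.74 above. Replication-dependent histones had 1.49 (1.42 to 1.57), but HIST1H4C held 4544 of their 4816 UMIs in high cells. HIST1H4C, a histone H4 gene expressed in S phase, was 18.97 to 124.6 per 10000 in high cells (median 70.7) and 9.31 to 103.6 in low cells (median 24.6), a ratio of 1.55 (1.47 to 1.63). The difference turned with the label numbers: the ratio was 4.14 in cells up to 48 and 0.47 in those above. In the cells between the HIST1H4C median was 66.5, near that of the high cells. Without HIST1H4C, a choice made after its values were seen, the histone list had 0.93 (0.78 to 1.11), with 2.43 in cells up to 48 and 0.36 above.

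ID2, an inhibitor of bHLH transcription factors, had a ratio of 2.30 (1.78 to 3.00). It was 0.700 to 12.04 per 10000 in high cells (median 1.85) and 0 to 3.58 in low cells (median 0.609). All 12 high cells lay above the low median, yet ID2 also turned with the label numbers, from 2.88 up to 48 to 0.79 above 48. Its ratio fell to 1.36 with 8 cells a group and 1.10 with 23.

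**Figure D4:**
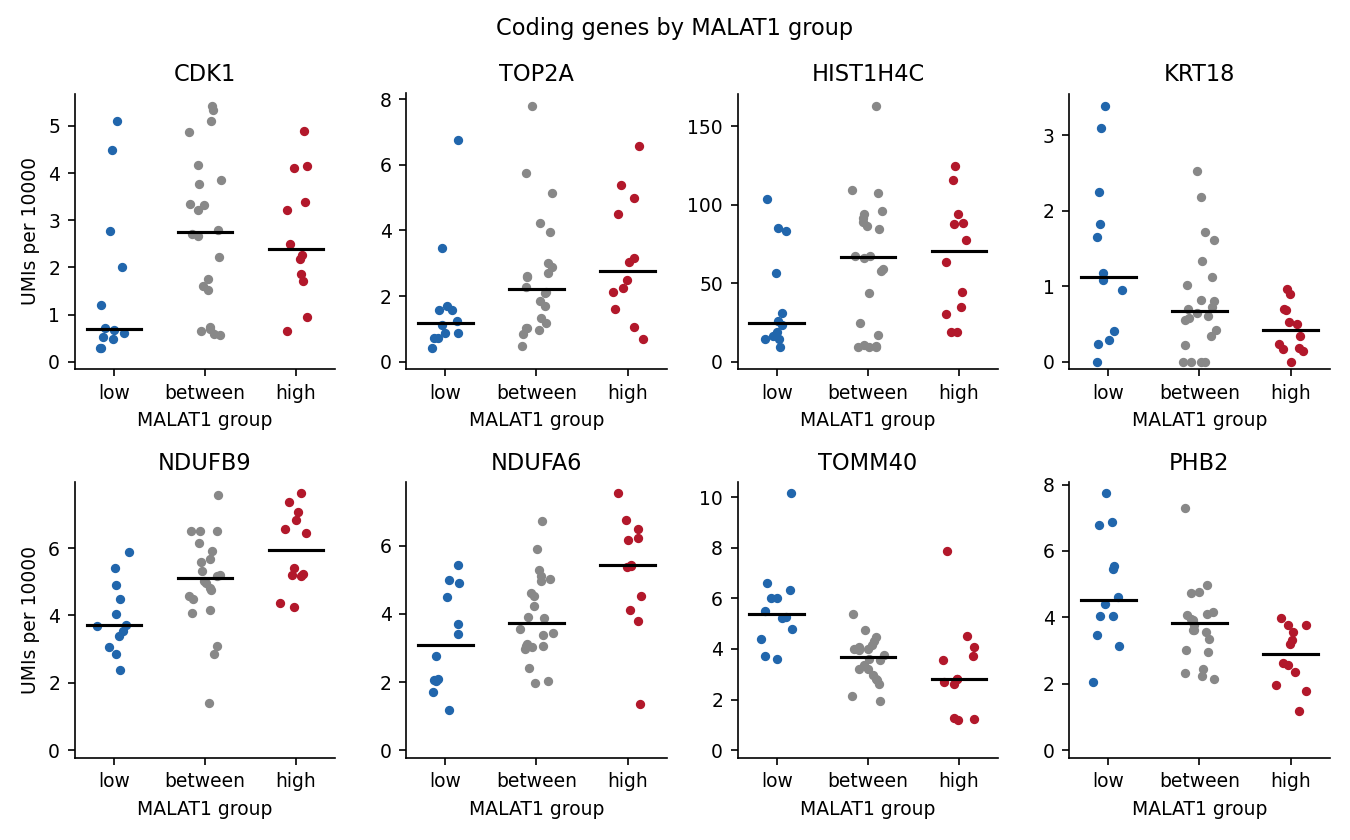
UMIs per 10000 endogenous UMIs other than MALAT1 in each cell, by MALAT1 group, for 8 mRNAs, with 1 point a cell and a line at the median. The top panels show genes with wide, overlapping groups (CDK1, TOP2A, HIST1H4C and KRT18). In the bottom panels NDUFB9 and NDUFA6 have higher medians in high than in low cells (5.94 and 3.71, 5.43 and 3.08), and TOMM40 and PHB2 lower ones (2.82 and 5.37, 2.91 and 4.51).

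Several genes at either end of the ratios or rank correlations encode mitochondrial proteins, and they were named for those values, not as members of a list. NDUFB9, an accessory subunit of respiratory complex I, was 4.27 to 7.65 per 10000 in high cells (median 5.94) and 2.38 to 5.87 in low cells (median 3.71). All 12 high cells lay above the low median, and the high cell was larger in 89.6% of pairs, where the middle 90% of tested genes ran from 29.2% to 70.8%. Its ratio was 1.48 (1.26 to 1.74), just under the 1.5 limit. NDUFA6, another complex I subunit, was 1.37 to 7.56 (median 5.43) and 1.18 to 5.44 (median 3.08), a ratio of 1.56 (1.31 to 1.86), with 1.83 in cells up to 48 and 1.64 above. COX8A, of complex IV, had 1.61 (1.30 to 2.01) and NDUFA5 1.81 (1.36 to 2.43). FIS1, of the outer mitochondrial membrane and known for its part in fission, had 1.98 (1.47 to 2.68). With 23 cells a group NDUFB9 had a ratio of 1.10 and NDUFA5 of 1.23.

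TOMM40, the channel of the mitochondrial import complex, had the lowest ratio among genes with at least 460 UMIs. It was 1.18 to 7.87 per 10000 in high cells (median 2.82) and 3.60 to 10.2 in low cells (median 5.37). In 11.8% of pairs the high cell was larger, and 1 of the 12 high cells lay above the low median. The ratio was 0.54 (0.45 to 0.64), with 0.50 in cells up to 48 and 0.59 above, and the rho over 46 cells of -0.59 was the lowest of these genes. PHB2, a prohibitin of the inner membrane, was 1.17 to 3.97 (median 2.91) and 2.06 to 7.75 (median 4.51), a ratio of 0.59 (0.49 to 0.71). No high cell (0 of 12) was above the low median of PHB2, and the ratio was 0.68 in cells up to 48 and 0.38 above. The assembly factors NDUFAF4 (0.58, or 0.87 with 23 cells a group) and COA3 (0.57) and the cyclophilin PPIF (0.69) were on the same side, as were ODC1 (0.56), of polyamine synthesis, and IMPDH2 (0.61), of guanine nucleotide synthesis. CDKN2A, a cell cycle inhibitor gene, had 0.64 (0.52 to 0.78) and a rho of -0.55.

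As a list, nuclear genes of oxidative phosphorylation did not differ in this way. They took 4.16% to 4.91% of UMIs in high cells and 4.01% to 5.13% in low cells, a ratio of 1.01 (0.99 to 1.02). Of 59 tested members 2 were higher (COX8A and NDUFA6) and 0 lower, against 9.19% and 11% of all genes. Calls were rarer among genes with at least 460 UMIs (2.49% and 1.76%), so the few calls are not read as a trait of this list. NDUFA5, a complex I gene with a ratio of 1.81, is not on this list. Mitochondrially encoded mRNAs had 0.92 (0.90 to 0.94), from MT-ND3 (0.81) to MT-CO1 (1.09). Of these 0 of 13 were called, against the same 2.49% and 1.76%. Per spike-in UMI that list had a ratio of 1.12, below the shift of all genes. The mitochondrial ribosomal RNAs were on the other side, at 1.198 (1.17 to 1.23), with 1.01 in cells up to 48 and 1.54 above. MT-RNR2, the larger of them, was 91.8 to 228.2 per 10000 in high cells (median 135.2) and 66.3 to 183.3 in low cells (median 109.5). Mitochondrial tRNAs had a ratio of 0.88 (0.83 to 0.94), with cells spread from 0.0547% to 1.42% in the high group alone. The direction did not hold: the ratio was 1.36 with 16 cells a group and 1.18 with 23, and it was 1.21 in cells up to 48 and 1.29 above.

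Cytoplasmic mRNAs with general functions differed little. Cytosolic ribosomal protein mRNAs took 25.8% to 32% of UMIs in high cells (median 27.3%) and 24.5% to 30.9% in low cells (median 27.2%), a ratio of 1.03 (1.02 to 1.03), with 0 of 79 called. The tight interval reflects 202837 and 156289 UMIs, not agreement among cells. Single members still differed cell by cell: RPL24 was 46.8 to 58.6 per 10000 in high cells (median 52.5) and 38.6 to 57.8 in low cells (median 44.1), a ratio of 1.14 with the high cell larger in 84.0% of pairs. Many ribosomal protein genes have processed copies in the genome, and reads shared with those copies make these counts uncertain. Translation factors had 0.98 (1 of 38 higher, 0 lower), the proteasome 1.00 (0 and 1 of 29), secretory pathway and ER genes 1.00 (1 and 2 of 38) and chaperones 0.96 (2 and 2 of 27). Glycolysis was at 0.89 (0.86 to 0.92), with 0 higher and 1 lower of 12, and its low cells lay mostly above the median of the high cells (11 of 12). Of all genes with at least 100 UMIs 9.19% were higher and 11% lower, and of those with at least 460 UMIs 2.49% and 1.76%. The few calls in these lists are therefore not read as a result about their members.

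**Figure D5:**
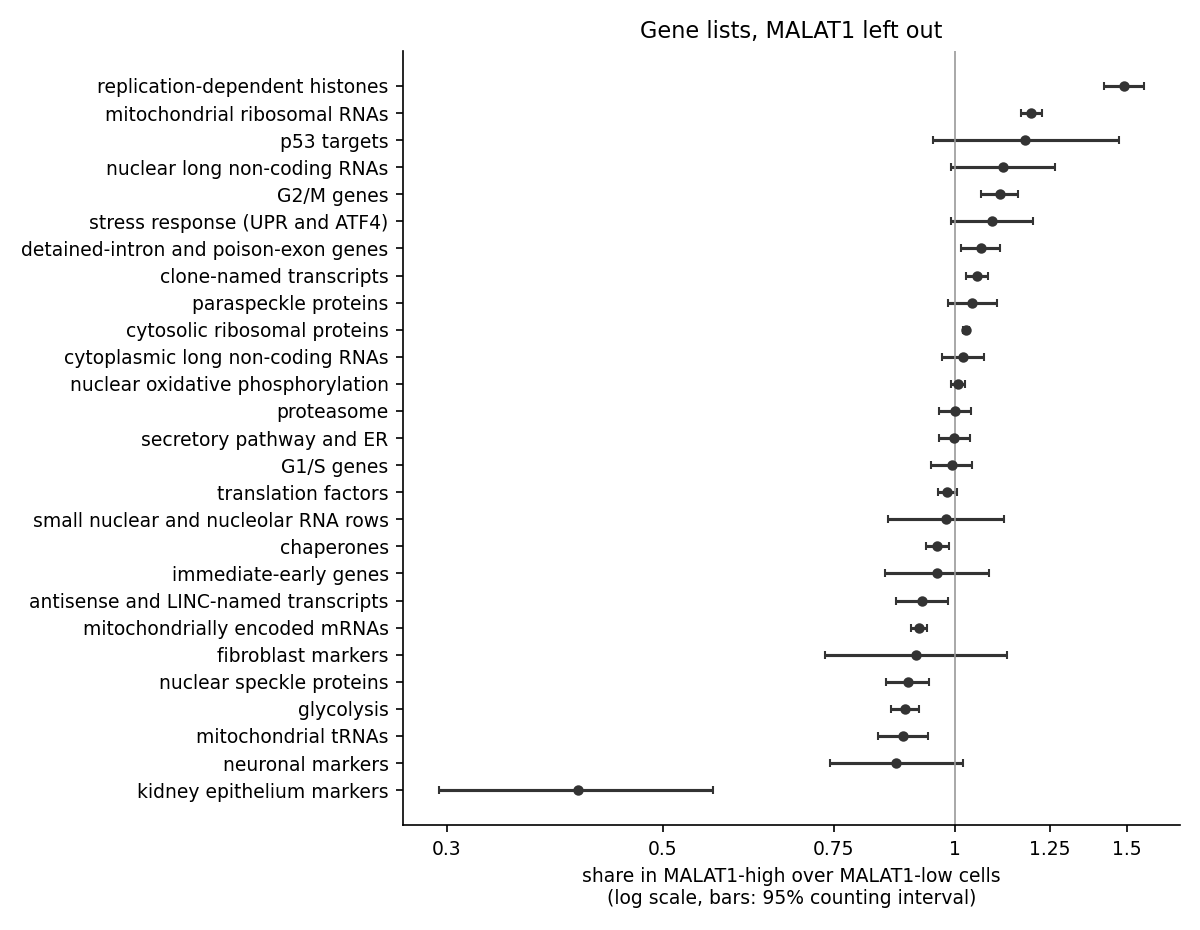
Ratio of the summed share of each gene list in MALAT1-high over MALAT1-low cells (log scale), with 95% counting intervals and MALAT1 left out. The other lists lie between 0.87 and 1.198, while the replication-dependent histones are at 1.49 and the kidney epithelium markers at 0.41, and blood markers are not drawn because of their 12 UMIs.

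Stress and growth lists were flat or thin. Immediate-early genes had 0.96 (0.85 to 1.08), with 1 of 9 higher and 0 lower, and 1.504 in cells numbered up to 48 against 0.69 above. Genes of the unfolded protein and ATF4 responses had 1.09 (0.99 to 1.202), with 2 of 12 higher and 2 lower, among them XBP1, a transcription factor of the unfolded protein response, at 0.59 (0.39 to 0.87) and 0.96 with 23 cells a group. p53 targets had 1.18 (0.95 to 1.47), with 1 of 2 higher, the DNA repair gene XPC at 2.32. For each of these lists the counts stand against 9.19% higher and 11% lower among all genes. At 20 UMIs 4 of 12 p53 targets were higher and 4 lower, against 20.5% and 20.6% of all such genes.

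Markers of other cell types were checked because a well could hold another cell. Blood and immune markers had 8 UMIs in the high and 4 in the low cells, with UMIs from 5 of 14 markers. Fibroblast markers had a ratio of 0.91 (0.74 to 1.13), with 0 of 1 called, against 9.19% higher and 11% lower among all genes. VIM, which HEK293 cells also express, had a median of 2.10 per 10000 in high and 2.34 in low cells. Neuronal markers, some of which HEK293 cells are known to express, took 0.0145% to 0.114% in high and 0.0142% to 0.103% in low cells, a ratio of 0.87 (0.74 to 1.02). NEFL, a neurofilament gene, was the 1 of 3 called lower (0.27, 0.12 to 0.55), on 11 and 32 UMIs, against 11% of all genes. The neurofilament gene NEFM had a ratio of 1.15 (0.86 to 1.54) on 121 and 83 UMIs, and UCHL1 had 0.85 (0.69 to 1.04). NEFM turned with the label numbers, with 3.04 in cells up to 48 and 0.42 above, and had 0.70 with 23 cells a group. In the same 2 ranges UCHL1 had 0.68 and 1.10, and the neuronal list 1.01 and 0.71.

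Kidney epithelium markers stood apart, though on few molecules. They took 0% to 0.0274% of UMIs in high cells (median 0.00885%) and 0.00286% to 0.0492% in low cells (median 0.0197%). The ratio was 0.41 (0.29 to 0.56), from 60 and 116 UMIs of 6 of the 13 markers. Most came from keratins: KRT18 had 29 and 74 UMIs, a ratio of 0.31 (0.19 to 0.48), and KRT8, its partner in simple epithelia, had 27 and 31, a ratio of 0.69 (0.40 to 1.19). KRT18 was 0 to 0.960 per 10000 in high cells (median 0.418) and 0 to 3.38 in low cells (median 1.13), and no high cell (0 of 12) lay above the low median. The list had a ratio of 0.26 in cells numbered up to 48 and 0.65 above, and 0.75 with 23 cells a group. KRT18, NEFL and XPC lie outside the rule for named genes and are named after their values were seen.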

How the data were processed

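Per the submitters' processing notes reads were handled with cutadapt 1.2.1 and STAR 2.4.0a on hg19 (GRCh37). How UMIs were collapsed, the annotation and the use of strand are not given in the sources used here. The deposited values are raw UMI counts, whole and without scaling, for 18651 gene rows (832 without a UMI) and 78 spike-in rows. A repeated header line that sums to 1859 names no gene and was left out. No 2 cells had identical counts (0 pairs).

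Members and gene lists were chosen with earlier results of these data known. Cells were ranked by MALAT1 UMIs over endogenous UMIs, and ties went to the lower cell number. Counts were pooled over each group. Ratios of shares have exact (Clopper-Pearson) 95% intervals, computed in Python 3.11.15 with scipy 1.17.1. In pairs of cells, ties count for both sides equally. Named genes are MALAT1, nuclear long non-coding RNAs with at least 100 UMIs, the 12 highest and 12 lowest ratios among genes with at least 460 UMIs, the 2 highest and 2 lowest members of each list with at least 230 UMIs, and the 6 highest and 3 lowest rank correlations with MALAT1. Scaling alternatives used TMM from edgeR 4.0.16 and size factors from DESeq2 1.42.0. Other alternatives were group size, ranking measure, depth, filters, fold and single cells left out. The ratio calculation was tested on simulated data.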

Additional observations from a re-analysis of the deposited data

Results flagged for a closer look

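Cell 52, which was left out of the ranking, had 47.4 MALAT1 UMIs per 10000 endogenous UMIs, from 155 MALAT1 UMIs among 32709. This lies just above the highest ranked cell (46.2), in a cell that the comparison of the 2 groups left out and that entered 1 alternative ranking. Per 100 spike-in UMIs it had 4.26, inside the range of the MALAT1-high cells (3.24 to 5.83). Its NEAT1 level was 5.22 per 10000 and its nuclear long non-coding RNAs took 0.151% of UMIs, each above the highest MALAT1-high cell (4.80 and 0.138%). Because cell 52 was left out for few cytoplasmic mRNAs, these shares are not separate support that nuclear RNAs go with MALAT1.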

How the results depend on the processing

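Genes called higher numbered 129 with 23 cells a group, 531 with DESeq2 size factors, 780 per spike-in UMI, 682 in cells numbered up to 48 and 510 above, 1857, 24 and 4972 with minimums of 20, 460 and 1 UMI, and 732 and 76 at a looser limit on the ratio and at 2. Genes called lower numbered 144, 254 and 154 under the first 3 of these, 557 up to 48, 867 above 48, 1861, 17 and 4195 with those minimums, and 916 and 103 at those limits. Of all calls 55.04% were on the higher side up to 48 and 37.04% above. Leaving out 1 cell at a time gave 318 to 384 higher and 389 to 463 lower. The log2 ratio of cytosolic ribosomal proteins was 0.21 with size factors and 0.33 per spike-in UMI. Signs of single results were compared only for the lists and for genes that met the rule for named genes, not for all called genes. Among such named genes past 1.5 times, signs turned for ID2 (-0.34), UBE2S (0.14) and HIST1H4C (-1.09) in cells above 48. They also turned for DDOST (0.14) in cells up to 48, and for EIF2S3 (-0.12) with 8 cells a group. Lists and named genes short of 1.5 times also turned, among them mitochondrial tRNAs (0.45 with 16 cells a group) and histones without HIST1H4C (1.28 up to 48, -1.48 above). The cause was not tested. NEAT1 kept its direction, with log2 ratios from 0.62 to 1.55. The nuclear list ranged from 0.08 to 0.45. No paired analysis was possible because the labels give 1 group. Depth limits most nuclear RNAs, 25 of the 33 having under 100 UMIs.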
